A study of Mus musculus with 15 samples.

Results

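Ribosome-protected fragments (RPFs), the stretches of mRNA that a ribosome shields from nuclease, were followed here over 10 genes of the cohesin and condensin complexes and their regulators. The 10 genes were taken by name from the 21727 transcripts of the count table: *Smc1a*, *Smc3*, *Rad21*, *Stag1* and *Stag2* (cohesin subunits), *Nipbl* (its loader), *Wapl* (its release factor), *Espl1* (separase), and *Smc2* and *Smc4* (the SMC pair of condensin). All 10 were among the 10085 transcripts that passed the filter on low counts, with between 552 (*Stag1*) and 4890 (*Smc3*) counts in a library. The question was whether ribosomes that carry the small-subunit protein Rps27 or its paralog Rps27l translate these mRNAs in the same proportion as the total ribosome pool does.

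The cells were mouse embryonic stem cells (mESCs) of the E14Tg2a.4 line, cultured with leukemia inhibitory factor, in 3 lines of 3 single-cell clones each: *Rps27-FLAG*, *Rps27l-FLAG* and WT. In the tagged lines both alleles of the endogenous gene carry a C-terminal 3xFLAG tag introduced by CRISPR, and the WT clones are untagged and passage-matched. Total RPFs were sequenced from all 9 clones, and the RPFs of anti-FLAG immunoprecipitated ribosomes (IP RPFs) from the 6 tagged clones, which gave 15 libraries. Every library came from cells lysed with cycloheximide, and both libraries of a tagged clone were made from its pelleted ribosomes, so that each IP value has a total value of its own. Each replicate number is a different clone and also a separate sequencing batch. No IP of untagged cells was analysed here, so the background of the immunoprecipitation is not measured.

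Cohesin is a ring of a pair of SMC ATPases, Smc1a and Smc3, closed by the kleisin Rad21, to which a Stag subunit binds. It holds sister chromatids together from replication until anaphase, when separase cuts Rad21, and it extrudes chromatin loops in interphase. Condensin is built on another SMC pair, Smc2 and Smc4, and compacts chromosomes for mitosis.

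The SMC subunits share the Walker A motif, the ATP-binding loop near the start of the protein, and its coding stretch shows how far these related genes are apart at the level of the footprint. The stretches below are on the plus strand of GRCm38, read from the coding sequences (CDS) of GENCODE M21, and the capitals mark the 8 codons of the motif, joined over the intron where they span 2 exons. *Smc1a* lies at chrX:152016622-152022756 across exons 1 and 2, *Smc3* at chr19:53601558-53613843 across exons 2 and 3, *Smc2* at chr4:52440346-52440375 in exon 2 and *Smc4* at chr3:69007944-69007973 in exon 4.
Smc1a: attGGACCCAATGGCTCTGGTAAGTCAaat
Smc3: gtgGGCAGAAATGGCTCTGGAAAAAGCaac
Smc2: actGGTTTAAATGGTAGTGGAAAATCCaac
Smc4: attGGACCAAATGGCAGTGGAAAATCCaat

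*Stag1* and *Stag2* are alternative subunits of the same position in cohesin, and their longest run of identical CDS bases is 23 bases. It lies in exon 12 of both genes. The stretches below show it with 3 bases on each side, at chr9:100848677-100848705 for *Stag1* and chrX:42229337-42229365 for *Stag2*, and the capitals mark the 2 bases that differ at its borders.
Stag1: acTcttgacaaagaatatgatgttgcTgt
Stag2: acCcttgacaaagaatatgatgttgcAgt

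That run is shorter than a window of 28 nt, about the length of a footprint. No 28-nt window in the CDS of any of the 10 genes occurred in the CDS of another gene, so counts could not be shared between these paralogs by identical footprints. The remaining genes lie elsewhere in GRCm38: *Rad21* at chr15:51962240-51991747 and *Nipbl* at chr15:8290617-8444463 on the minus strand, and *Wapl* at chr14:34673928-34747983 and *Espl1* at chr15:102296266-102324357 on the plus strand.

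Library totals lay between 3972152 and 8064166 counts, and the IP libraries (3972152 to 6673935) were shallower than most total libraries (6313827 to 8064166). The stem cell identity of the cells was checked on marker genes. The summed level of 8 mESC markers was 3542 to 4388 normalized CPM (counts scaled to the library's size) in every library, against at most 13.9 for endoderm, 2.02 for mesoderm, 22.6 for neuroectoderm, 29.4 for trophoblast and 33.2 for fibroblast markers.

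In WT total RPFs the kleisin and the SMC subunits carried the highest footprint density of the 10 genes, and *Nipbl* the lowest. Levels are given as normalized CPM per kb of the counted CDS, which leaves out the first 15 and last 5 codons, as mean ± SD of 3 clones. *Rad21* led at 246 ± 17.4, followed by *Smc3* at 163 ± 4.32, *Smc2* at 141 ± 2.92 and *Smc4* at 127 ± 1.83. *Smc1a*, the partner of Smc3 in the ring, was next at 102 ± 10.3, then *Wapl*, which opens the ring to release cohesin from chromatin, at 79.0 ± 3.80. *Espl1*, the protease that cuts Rad21, was at 64.8 ± 6.17, *Stag2* at 52.4 ± 6.41, *Stag1* at 39.1 ± 2.52 and *Nipbl*, which loads cohesin onto DNA, at 29.9 ± 0.158. The median of the tested transcripts was 25.5 on the same scale, below all 10 genes. Among neighbours in this order, only the clones of *Espl1* and *Stag2* overlapped.

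**Figure D1:**
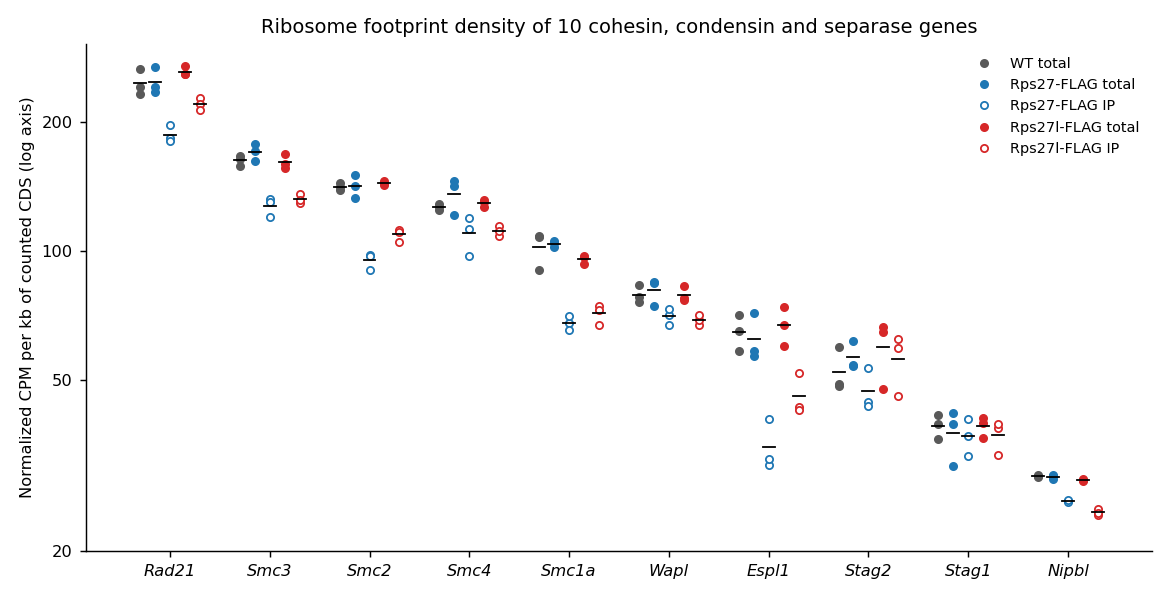
Footprint density (normalized CPM per kb of counted CDS, log axis) of the 10 genes in each of the 15 libraries, with points for clones and bars for the mean of 3 clones. Filled points are total RPFs and open points are IP RPFs. The order from *Rad21* to *Nipbl* was set on WT total RPFs, and open points of *Espl1*, *Smc1a* and *Smc2* lie below all filled points of their line.

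The total RPFs of the 10 genes were close in the 3 lines, and none differed by the test. With edgeR's quasi-likelihood test and Benjamini-Hochberg adjustment, 0 of 10 passed (adjusted p under 0.05) in each of the 3 pairs of lines, where 0% of all transcripts passed, and the lowest unadjusted p among the 30 values was 0.117 (*Smc1a*, *Rps27l-FLAG* against *Rps27-FLAG*). With the sequencing batch as a block 0.00992%, 1.43% and 1.36% of transcripts passed for *Rps27-FLAG* against WT, *Rps27l-FLAG* against WT and *Rps27l-FLAG* against *Rps27-FLAG*, and still 0 of the 10 genes. Also by voom and limma and by DESeq2, 0 of 10 passed.

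Log2 fold changes of total RPFs ran from -0.06 (*Stag1*) to 0.11 (*Stag2*) for *Rps27-FLAG* against WT and from -0.09 (*Smc1a*) to 0.19 (*Stag2*) for *Rps27l-FLAG* against WT, with SE from 0.05 to 0.13. *Stag2* had the widest spread. Its normalized CPM were 217, 176 and 177 in the WT clones, 224, 197 and 196 in *Rps27-FLAG* and 241, 235 and 173 in *Rps27l-FLAG*. The 3 lines overlapped, and the *Rps27l-FLAG* clone of replicate 3 was the lowest of all 9. *Nipbl* was the steadiest, with 248 to 250.2 in WT, 245 to 251 in *Rps27-FLAG* and 243 to 246 in *Rps27l-FLAG*.

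In the *Rps27-FLAG* line the IP held fewer footprints of separase, of the core of the cohesin ring and of *Smc2* than the total RPFs did, relative to all other transcripts in the library. Of the 10 genes 5 fell (*Espl1*, *Smc1a*, *Smc2*, *Smc3* and *Rad21*) and 0 rose by edgeR's quasi-likelihood test with Benjamini-Hochberg adjustment, where 5.34% of all transcripts fell and 0.327% rose. With the clone as a block, which sets each IP library against its own total library, 9 of 10 fell, all but *Stag1*, and 0 rose, where 22.9% of all transcripts fell and 18.3% rose. The median log2 fold change of the 10 genes was -0.36 against -0.0104 over all transcripts. In the fit without the block the count depended on single clones, as did the count over all transcripts. It was 9 without replicate 1, where 1140 of 10085 transcripts fell. Without replicate 2 and without replicate 3 it was 0, where 0 of all transcripts passed. At an unadjusted p under 0.05 in edgeR there were then 5 and 7 of the 10 genes, and 946 and 1112 of all transcripts. With the block it was 9 without each of them in turn, where 1901, 1890 and 1955 of all transcripts fell.

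*Espl1* had the lowest IP level relative to total of the 10 genes. In *Rps27-FLAG* its normalized CPM were 452, 359 and 367 in total RPFs and 255, 199 and 206 in IP RPFs for replicates 1, 2 and 3. The groups did not overlap, and log2 IP over total was -0.82, -0.85 and -0.83 in the 3 clones, a spread far smaller than the difference. The fitted log2 fold change was -0.83 (SE 0.12, adjusted p = 0.00802 by edgeR's quasi-likelihood test).

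*Smc1a* followed, the cohesin SMC subunit that pairs with Smc3. Its normalized CPM in *Rps27-FLAG* were 371, 385 and 380.2 in total and 248, 238 and 257 in IP RPFs, again without overlap. The log2 fold change was -0.61 (SE 0.06, adjusted p = 0.00152 in edgeR). *Smc3* fell less, with 581, 638 and 615 in total and 431, 475 and 467 in IP RPFs. All 3 IP values lay below all 3 total values, and the log2 fold change was -0.42 (SE 0.06, adjusted p = 0.00972 in edgeR). *Rad21*, the substrate of separase, stood close to *Smc3*, with 495, 445 and 433 in total and 362, 339 and 332 in IP RPFs. Its log2 fold change was -0.41 (SE 0.07, adjusted p = 0.0154 in edgeR).

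The *Stag* subunits of cohesin did not pass without the block. *Stag1* had 117, 156 and 147 normalized CPM in total and 124, 137 and 151 in IP RPFs of *Rps27-FLAG*, so that IP was higher in the clones of replicates 1 and 3 and lower in that of replicate 2. Its log2 fold change was -0.03 (SE 0.12, adjusted p = 0.925 in edgeR, and 0.670 with the clone as a block). *Stag2* had 224, 197 and 196 in total and 194, 161 and 158 in IP RPFs. Each IP value was below the total of its own clone and all 3 below the lowest total, with a log2 fold change of -0.26 (adjusted p = 0.167 in edgeR, and 4.53e-12 with the clone as a block).

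The loader and the release factor showed small differences. *Nipbl* had 249, 251 and 245 normalized CPM in total and 218, 217 and 219.6 in IP RPFs of *Rps27-FLAG*, which do not overlap. Its log2 fold change was -0.19 (adjusted p = 0.0841 in edgeR, and 2.11e-07 with the clone as a block). *Wapl* was at -0.20 (adjusted p = 0.153 in edgeR, and 1.5e-08 with the block), with 263, 298 and 299 in total and 238, 251 and 259 in IP RPFs.

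Of the condensin pair, *Smc2* passed in both fits and *Smc4* only with the block. *Smc2* had 467, 529 and 499 normalized CPM in total and 318, 343 and 341 in IP RPFs of *Rps27-FLAG*, and its log2 fold change was -0.58 (SE 0.07, adjusted p = 0.00312 in edgeR). For *Smc4* the values were 460.2, 537 and 553 in total and 369.8, 428 and 454 in IP RPFs. IP was below total in each clone and in all 3 against all 3, and the log2 fold change was -0.31 (SE 0.10, adjusted p = 0.116 in edgeR, and 1.45e-22 with the clone as a block). All 3 IP libraries lay below all 3 total libraries for 9 of the 10 genes, all but *Stag1*, against 17% of all transcripts.

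In the *Rps27l-FLAG* line the same 5 genes fell in the IP, together with *Nipbl* and *Smc4*. The 7 of 10 that passed edgeR's quasi-likelihood test with Benjamini-Hochberg adjustment stood against 2.27% of all transcripts that fell, and 0 of 10 rose against 0.833%. With the clone as a block 9 of 10 fell, again all but *Stag1*, and 0 rose, where 19% of all transcripts fell and 12% rose. The median of the 10 genes was -0.251 against -0.0307 over all transcripts. The count without the block was 0 without replicate 1 and 0 without replicate 2, where 0 of 10085 transcripts passed. In each of these 8 of the genes had an unadjusted p under 0.05 in edgeR, against 1112 and 793 of all transcripts. The count was 4 without replicate 3, where 241 of all transcripts fell. With the block it was 8, 9 and 8, where 1537, 1449 and 1578 of all transcripts fell. *Stag2* was the gene lost without replicate 1 and without replicate 3.

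*Espl1* again stood lowest. Its normalized CPM in *Rps27l-FLAG* were 467, 423 and 378 in total and 328, 272 and 268 in IP RPFs, and log2 IP over total was -0.51, -0.64 and -0.49 in the 3 clones. The groups did not overlap, and the fitted log2 fold change was -0.54 (SE 0.10, adjusted p = 0.0275 in edgeR). *Smc1a* had 339, 352 and 354 in total and 245, 271 and 265 in IP RPFs, with a log2 fold change of -0.42 (SE 0.06, adjusted p = 0.0126 in edgeR). *Smc2* had 501, 505 and 510.4 in total and 393, 369 and 390.0 in IP RPFs, with a log2 fold change of -0.40 (SE 0.05, adjusted p = 0.00666 in edgeR). For these SMC subunits too, every IP value was below every total value.

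The smaller decreases in *Rps27l-FLAG* were close to each other. *Smc3* fell by 0.29 on the log2 scale (561, 603 and 573 normalized CPM in total, 465, 487 and 471 in IP RPFs, adjusted p = 0.0227 in edgeR). *Rad21* fell by 0.25 (497, 476 and 477 in total, 418, 407 and 394 in IP RPFs, adjusted p = 0.0321 in edgeR). *Nipbl* also fell by 0.25 (243, 246 and 243 in total, 202, 209 and 204 in IP RPFs, adjusted p = 0.0434 in edgeR). In each of these the IP values lay below all total values of the line. *Smc4* fell by 0.22 (482, 501 and 494 in total, 411, 434 and 423 in IP RPFs, adjusted p = 0.0475 in edgeR).

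*Wapl*, *Stag2* and *Stag1* did not pass in *Rps27l-FLAG* without the block. *Wapl* was at -0.20 (adjusted p = 0.113 in edgeR, and 1.79e-06 with the block), with 275, 272 and 293 normalized CPM in total and 238, 244 and 251 in IP RPFs. *Stag2* was at -0.09 (adjusted p = 0.830 in edgeR, and 0.0264 with the block). Its total values of 241, 235 and 173 and its IP values of 216, 226 and 167 overlapped, and the clone of replicate 3 was lowest in both. *Stag1* was at -0.07 (adjusted p = 0.763 in edgeR, and 0.183 with the block), and its 152, 136 and 148 in total and 144, 124 and 147 in IP RPFs overlapped too. All 3 IP libraries lay below all 3 total libraries for 8 of 10 genes in this line, all but the *Stag* genes, against 14.2% of all transcripts.

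**Figure D2:**
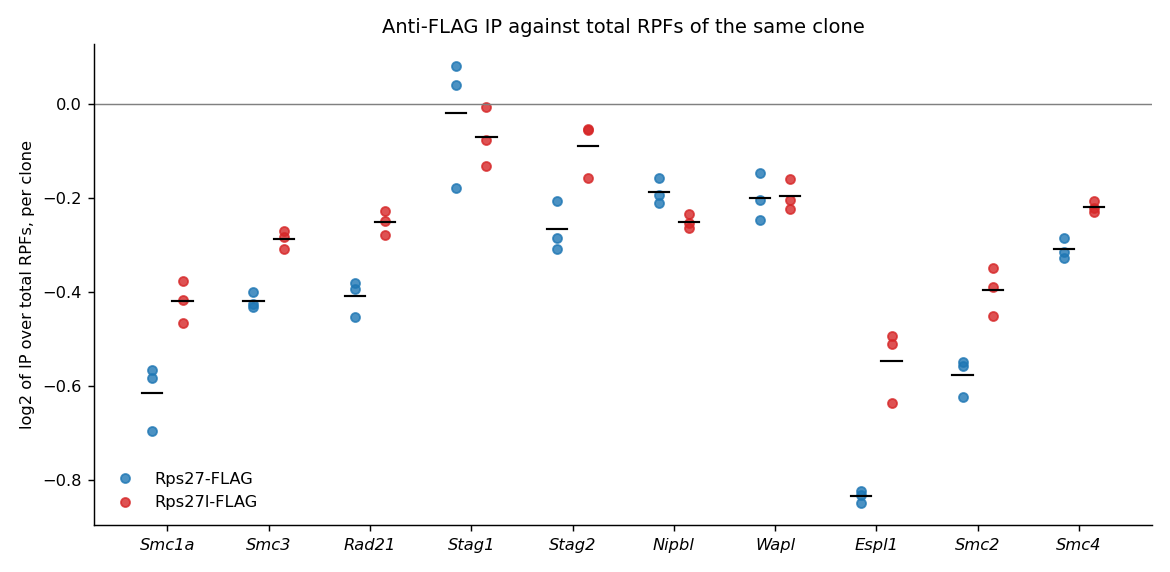
Log2 of IP over total RPFs of each tagged clone (normalized CPM, y axis) for the 10 genes, with bars for the mean of 3 clones and a line at 0. *Espl1* lies lowest in both lines. All clones lie below 0 except those of replicates 1 and 3 of *Rps27-FLAG* for *Stag1*.

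CDS length moved with these values over all transcripts. When the tested transcripts were split by CDS length into 10 bins of about equal number, the median log2 fold change of IP over total went from 0.20 in the shortest bin to -0.32 in the longest (CDS of 3642 nt or more) in *Rps27-FLAG*, and from 0.15 to -0.26 in *Rps27l-FLAG*. The 10 genes are long, with a median CDS of 3696 nt against 1438.5 nt over the tested transcripts. *Nipbl* has the longest at 8394 nt and *Espl1* the next at 6354 nt, while *Rad21* with 1905 nt is longer than 65.7% of tested transcripts and is the shortest of the 10.

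With the length trend removed in the blocked fit, separase, the ring and *Smc2* still fell in both lines, and *Nipbl*, *Wapl* and the *Stag* genes did not. In *Rps27-FLAG* 6 of the 10 fell by edgeR's quasi-likelihood test: *Espl1* by 0.51, *Smc1a* by 0.42, *Smc2* by 0.39, *Rad21* by 0.37, *Smc3* by 0.23 and *Smc4* by 0.11 on the log2 scale, where 18.2% of all transcripts fell. *Nipbl* rose by 0.20 and *Stag1* by 0.18, where 12.2% rose, while *Stag2* was at -0.064 and *Wapl* at -0.0099 and neither passed. In *Rps27l-FLAG* 5 of the 10 fell, where 13.2% of all transcripts fell: *Espl1* by 0.30, *Smc1a* by 0.27, *Smc2* by 0.25, *Rad21* by 0.22 and *Smc3* by 0.14. None of the 10 rose there (9.14% of transcripts did), with *Nipbl* at 0.046 and *Stag1* at 0.082. *Nipbl* and *Stag1* thus change sign in both lines when length is taken into account. Without the block, removal of the length trend left 3 genes that fell in *Rps27-FLAG* and 0 in *Rps27l-FLAG*, where 120 and 3 of 10085 transcripts fell. At an unadjusted p under 0.05 in edgeR there were 6 and 5 of the 10 genes, and 1574 and 1121 of all transcripts.

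**Figure D3:**
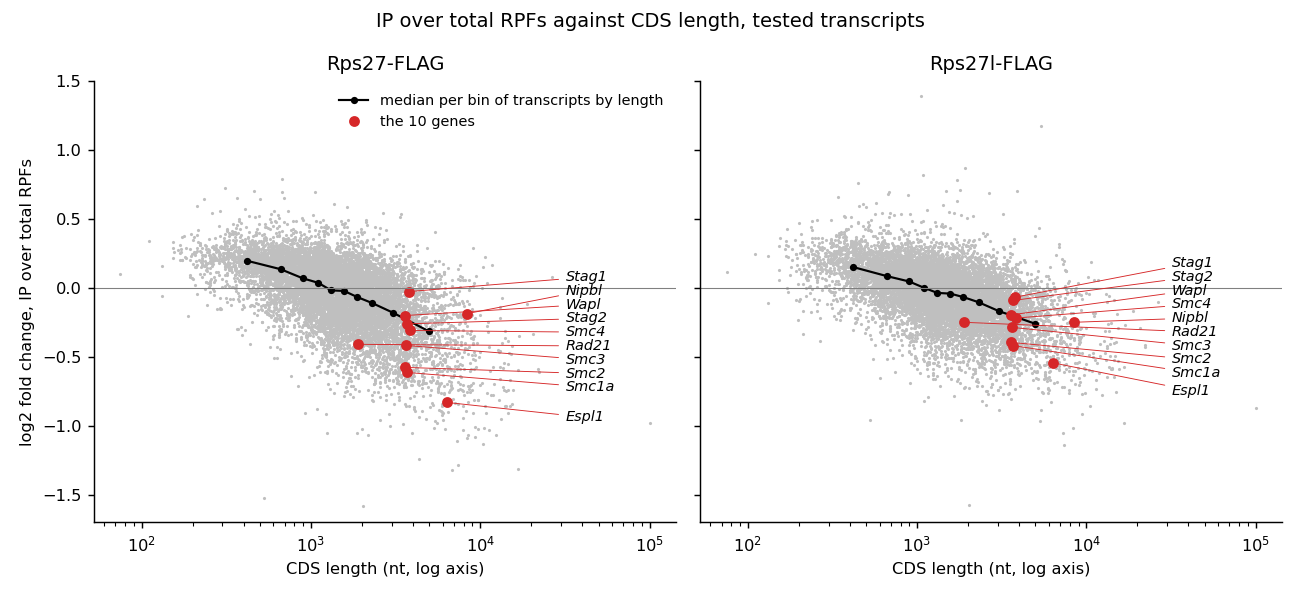
Log2 fold change of IP over total RPFs against CDS length (nt, log axis) for the tested transcripts in *Rps27-FLAG* (left) and *Rps27l-FLAG* (right). Grey points are transcripts, the black line joins the medians of the 10 bins by length, and red points are the 10 genes. *Smc1a*, *Smc2* and *Rad21* lie below the black line in both panels, *Espl1* lies below its lower end, and *Stag1* lies above it.

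The tagged lines were then compared with each other, each IP library against the total of its clone. *Espl1* was the gene of the 10 whose IP level relative to total differed past both limits of the comparison (adjusted p under 0.05 and an absolute log2 difference over 0.25). Its decrease was smaller in *Rps27l-FLAG*, by 0.29 on the log2 scale (SE 0.05, adjusted p = 5.03e-06 by edgeR's quasi-likelihood test), where 0.466% of all transcripts were higher in *Rps27l-FLAG* past both limits. Log2 IP over total was -0.83 ± 0.01 (SD, n = 3) in *Rps27-FLAG* and -0.55 ± 0.08 in *Rps27l-FLAG*, and the clones of the lines did not overlap. The difference passed without each of the 6 clones in turn, from 0.26 to 0.33. It was 0.21 (adjusted p = 0.00227 in edgeR) with the length trend removed, under the limit on size.

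Without the limit on size 4 of the 10 genes were higher in *Rps27l-FLAG*, where 1.35% of all transcripts were. These were *Espl1*, *Smc1a* at 0.19 (adjusted p = 0.00579 in edgeR), *Smc2* at 0.18 (adjusted p = 0.00569) and *Rad21* at 0.16 (adjusted p = 0.0183). These 3 smaller differences depend on single clones. *Smc1a* lost its call without replicate 2 of either line (0.15 and 0.17), and *Smc2* without replicate 2 of *Rps27-FLAG* or replicate 1 of *Rps27l-FLAG* (0.16 in both). *Rad21* did so without replicate 1 or 3 of *Rps27-FLAG* and without replicate 1 or 2 of *Rps27l-FLAG*, at 0.14 to 0.18.

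The other 6 did not pass at any size. *Smc3* was at 0.13 (adjusted p = 0.0688 in edgeR), *Stag2* at 0.16 (adjusted p = 0.0699), *Smc4* at 0.09 (adjusted p = 0.332), *Wapl* at 0.0026 (adjusted p = 0.991), *Stag1* at -0.05 (adjusted p = 0.824) and *Nipbl* at -0.06 (adjusted p = 0.670). The clones of the lines did not overlap for 8 genes, of which 7 were higher in *Rps27l-FLAG* (9.08% of all transcripts) and *Nipbl* was lower (7.13%). In a fit with no term for the clone, 0 transcripts passed in edgeR, and 142 of all transcripts and 2 of the 10 genes had an unadjusted p under 0.05. The yield of IP RPF RNA was greater from *Rps27-FLAG* cells per the study's account, and the part of yield in these differences was not tested.

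The balance of subunits was compared as ratios of counts per kb within a library, which need no scaling between libraries. In WT total RPFs *Smc1a* stood at 0.627 ± 0.0482 of *Smc3* (SD, n = 3), *Rad21* at 1.52 ± 0.146, and the sum of *Stag1* and *Stag2* at 0.563 ± 0.0414. *Stag1* stood at 0.757 ± 0.129 of *Stag2*, and *Smc2* at 1.12 ± 0.0340 of *Smc4*. An exact permutation test over the 9 total libraries found none of the 5 ratios to differ between the 3 lines, with adjusted p from 0.589 to 0.689 over the 5 and a smallest possible p of 0.00357. When lines were permuted within sequencing batches, none passed after adjustment either. The smallest p that this permutation allows is 0.0278, so a ratio that reaches it alone cannot pass after adjustment over the 5. *Rad21* over *Smc3*, which was highest in *Rps27l-FLAG* in each batch (1.72, 1.54 and 1.62, against 1.68, 1.45 and 1.42 in WT and 1.66, 1.36 and 1.37 in *Rps27-FLAG*), had an exact p of 0.0278 and 0.139 after adjustment. *Smc2* over *Smc4* had an exact p of 0.0833 and 0.208 after adjustment, and was lowest in *Rps27-FLAG* in each batch.

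Between IP and total RPFs 3 of the 5 ratios moved one way in all 6 tagged clones. *Smc1a* over *Smc3* was lower in the IP, with 0.568, 0.494 and 0.543 against 0.630, 0.595 and 0.610 in *Rps27-FLAG* and 0.520, 0.549 and 0.555 against 0.596, 0.576 and 0.609 in *Rps27l-FLAG*. The mean log2 difference was -0.16 (SD 0.07 over 6 clones). *Smc2* over *Smc4* was also lower in 6 of 6 clones, by a mean log2 difference of -0.22 (SD 0.07). It was 0.928, 0.867 and 0.813 in the IP against 1.10, 1.06 and 0.976 in total RPFs of *Rps27-FLAG*, and 1.03, 0.920 and 0.996 against 1.12, 1.09 and 1.12 in *Rps27l-FLAG*. IP and total values did not overlap within a line in either of these ratios.

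The *Stag* sum over *Smc3* was higher in the IP in 6 of 6 clones, by a mean log2 difference of 0.23 (SD 0.06). For each of the 3 ratios the exact two-sided sign-flip test over the clones gave p = 0.03125, the smallest that 6 clones allow. It was 0.0521 after Benjamini-Hochberg adjustment over the 5 ratios, so that none passed. With only 3 of the 5 at the smallest p, the adjusted value cannot be lower. *Rad21* over *Smc3* differed by 0.02 (SD 0.03, exact p = 0.125, adjusted 0.125). *Stag1* over *Stag2* differed by 0.13 (SD 0.16, exact p = 0.09375, adjusted 0.117). With the length trend removed *Rad21* over *Smc3* turned to -0.11, and its exact p by the sign-flip test was 0.03125 too, 0.0391 after adjustment. The 3 ratios above then had the same adjusted p at an unchanged exact p.

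**Figure D4:**
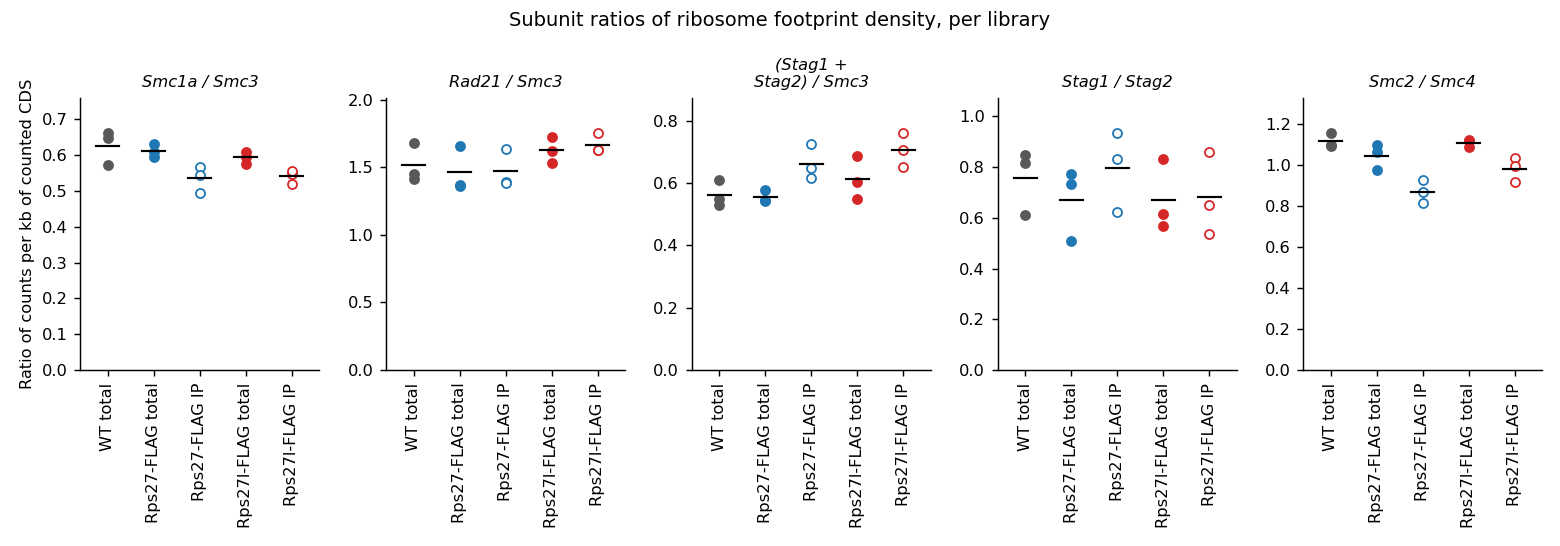
Ratios of counts per kb of counted CDS for 5 pairs of subunits (y axis from 0, no unit) in the 15 libraries, with points for clones and bars for the mean of 3 clones. Filled points are total RPFs and open points IP RPFs. *Smc1a* over *Smc3* and *Smc2* over *Smc4* are lower in open than in filled points of both tagged lines.

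The other genes of these complexes were taken from a list of 39 SMC complex genes, 28 of which were tested beside the 10. The meiotic kleisin gene *Rad21l* was not tested, with 0 to 16 counts in a library. Among the 28, 8 fell and 0 rose in the *Rps27-FLAG* IP by edgeR's quasi-likelihood test with Benjamini-Hochberg adjustment, where 5.34% of all transcripts fell and 0.327% rose. Both SMC subunits of the Smc5/6 complex, which acts in DNA repair, were among them, with *Smc6* at -0.62 and *Smc5* at -0.61. So were the condensin subunits *Ncaph* at -0.54, *Ncapg2* at -0.43 and *Ncapd3* at -0.37, the topoisomerase *Top2a* at -0.41, the cohesin partner *Pds5b* at -0.27 and *Sgo2a*, a shugoshin that protects centromeric cohesin, at -0.99. *Sgo2a* had the lowest value of the list, and 384 of its 3465 28-nt windows also occur in *Sgo2b*, and reads that did not align uniquely were not counted. In the blocked fit with the length trend removed, *Top2a* was at -0.16, *Ncapd3* at -0.14 and *Pds5b* at -0.040, the last no longer past the test.

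In *Rps27l-FLAG* 4 of the 28 fell and 0 rose, where 2.27% of all transcripts fell and 0.833% rose. Those that fell were *Sgo2a* at -0.76, *Smc6* at -0.44, *Ncaph* at -0.40 and *Smc5* at -0.39. With the clone as a block 16 of the 28 fell in each line, where 22.9% of all transcripts fell in *Rps27-FLAG* and 19% in *Rps27l-FLAG*. Counts of 6 genes that rose in *Rps27-FLAG* and 3 that rose in *Rps27l-FLAG* were near the shares of all transcripts that rose, 18.3% and 12%. With the block, the genes that rose in both lines were *Pttg1*, which encodes securin, the inhibitor of separase, at 0.26 in both lines, *Cdca5*, which encodes sororin, at 0.18 and 0.19, and *Nsmce1* of the Smc5/6 complex at 0.29 and 0.23 (the lines in the order *Rps27-FLAG*, *Rps27l-FLAG*). These CDS are short, and with the length trend removed as well *Pttg1* was at 0.088 and 0.12, *Cdca5* at 0.056 and 0.094, and *Nsmce1* at 0.17 and 0.15. *Nsmce1* still passed in both lines, *Pttg1* passed in *Rps27l-FLAG* and *Cdca5* passed in neither. Without the block *Pttg1* was at 0.27 in each line (adjusted p = 0.375 and 0.244 in edgeR). In the comparison between the lines 0 of the 28 passed both limits, and *Smc5* at 0.22, *Sgo2a* at 0.23 and *Top2a* at 0.23 passed without the limit on size.

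**Figure D5:**
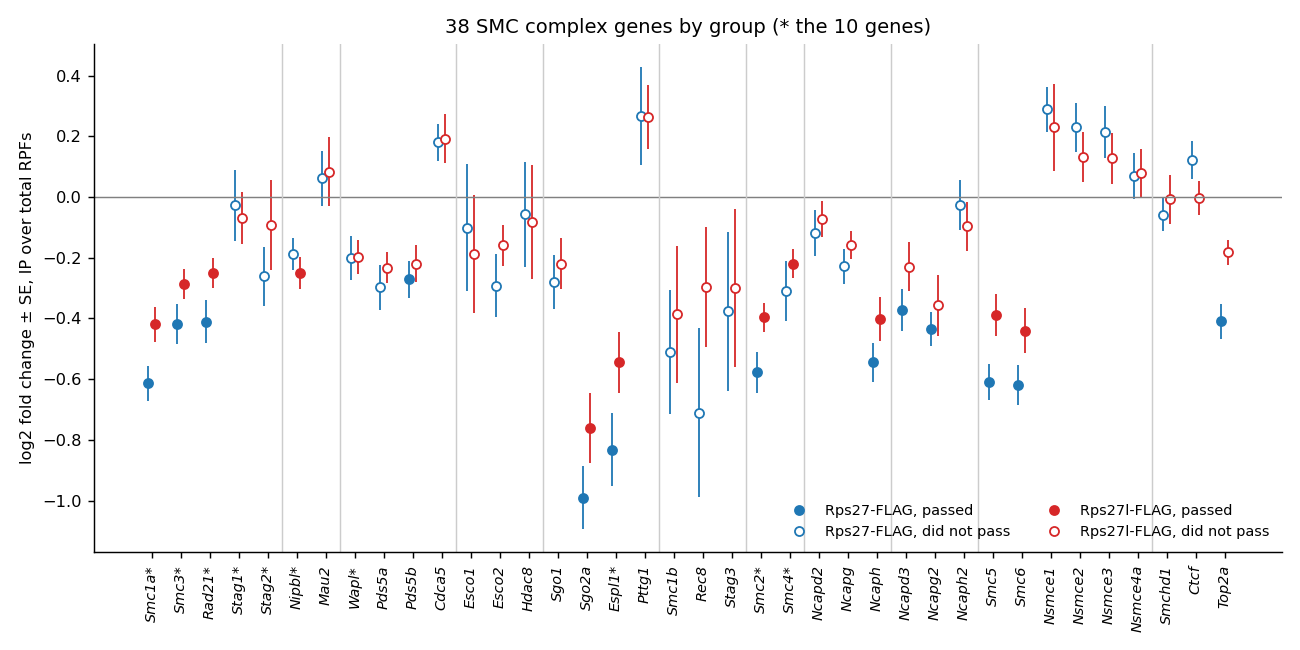
Log2 fold change of IP over total RPFs (y axis, ± SE) for the 38 tested SMC complex genes, grouped by complex between grey lines, in *Rps27-FLAG* (blue) and *Rps27l-FLAG* (red), with filled points where the adjusted p was under 0.05 without the block. Stars mark the 10 genes. *Sgo2a* and *Espl1* are the lowest of the filled points, and no filled point lies above 0.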

How the data were processed

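Per the labels and the study's methods, the authors digested lysates of mESC clones with RNases A and T1, pelleted ribosomes, immunoprecipitated part of them with anti-FLAG, and sequenced RPFs with molecular identifiers after rRNA depletion. Reads were trimmed (cutadapt 2.4), deduplicated (UMI-tools 1.0.1) and aligned uniquely (Bowtie2 2.3.4.3) to GRCm38 transcripts. The deposited values are raw counts of A sites per CDS without the first 15 and last 5 codons, for 21727 transcripts. All 15 columns were used and 0 were left out.

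Names, positions and CDS came from GENCODE M21 (21723 transcripts matched), another release than the authors'. After 13 mitochondrially encoded transcripts were dropped, those with CPM over 2 in at least 14 of 15 libraries were kept (10085), and TMM factors were set for IP and total libraries separately. Tests used edgeR 4.0.16 in R 4.3.3 (quasi-likelihood, Benjamini-Hochberg over all tested transcripts), with the study's designs: line for total RPFs, fraction for IP against total, and clone within line with fraction within line for the comparison of the tagged lines, without *Tmod3*. The scripts were tested on simulated data. Alternatives were voom (limma 3.58.1), DESeq2 1.42.0, other scaling and filters, trends of CDS length and GC content (loess, span 0.5), the block and leaving out clones. For values of single clones 0.5 counts were added before log2. Python 3.11.15 (pandas 2.3.3, matplotlib 3.10.9) made the tables and figures.

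Pairing was checked on deviations from condition means. Those of libraries that share a clone and, by the methods, its pelleted ribosomes correlated with r of 0.468 to 0.79 in 6 of 6 clones. Total libraries of the same batch had a median r of 0.443. Within a condition no library was a copy of another (chi-square per degree of freedom from 1.78 to 10.3). Pairs of libraries from different conditions were not checked by this measure.

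The 10 genes, the list of 39 and the marker lists were chosen with earlier results of these data known. The rule named all 10 genes in each comparison, and of the other list genes those that passed a test. p-values measure the spread between clones of 1 parental line, and within a line each clone is also its own batch. With the clone as a block, and in the comparison of the tagged lines, that is the spread of the IP and total difference between clones, and not of their levels. For each transcript edgeR estimates the spread with information shared over all transcripts. The very small p-values of the blocked fits rest on that shared estimate, and not on the gene's own clones alone.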

Additional observations from a re-analysis of the deposited data

Results flagged for a closer look

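In 4 genes the IP level relative to total RPFs differed between the tagged lines by a test of the difference itself (edgeR's quasi-likelihood test with Benjamini-Hochberg adjustment). *Espl1* was higher in *Rps27l-FLAG* by 0.29 on the log2 scale, *Smc1a* by 0.19, *Smc2* by 0.18 and *Rad21* by 0.16, with adjusted p of 5.03e-06, 0.00579, 0.00569 and 0.0183. The clones of the lines did not overlap in any of the 4. Of all transcripts, 1.35% were higher by this test and 9.08% were higher without overlap. *Espl1* alone of the 4 genes was over the limit of 0.25 on the difference. *Smc1a*, *Smc2* and *Rad21* each lost their call when certain single clones were left out. In a fit with no term for the clone 0 transcripts passed. No group had enough samples for a check of single far values.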

How the results depend on the processing

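The pairing of libraries, the length trend and single clones each moved these counts. In *Rps27-FLAG* the count of genes past the test in IP against total, in either direction, was 5, where 572 of 10085 transcripts passed. It was 9 with the replicate block (4154 of all transcripts) and 9 with the block and the GC trend removed (4118). With the block and the length trend removed it was 8, of which 6 fell and 2 rose (3073 of all transcripts). It was 3 with the length trend removed and no block (148). Leaving out 1 clone gave 0 to 9 without the block, where 0 to 1817 of all transcripts passed. With the block, an alternative chosen after seeing the data, it gave 9, 9 and 9, where 3381, 3311 and 3384 passed. In *Rps27l-FLAG* the count of 7, where 2.27% of all transcripts fell, became 4 by DESeq2 and 4 with DESeq2 size factors. There 263 and 194 of 10085 transcripts fell. The count was 0 with the length trend removed and no block, where 3 of all transcripts fell. It was 0 to 4 without 1 clone, where 0 to 241 of all transcripts fell. Between the tagged lines the count of 1, where 0.466% of all transcripts were higher, became 0 with the length trend removed (0.178%). It was 0 with no replicate block, where 0 of all transcripts passed, and 4 with no limit on the fold change (1.35%). Total RPFs kept a count of 0 in every alternative run, where 0 of all transcripts passed in most runs and at most 144 in any.

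Signs turned in *Stag1*, *Stag2*, *Nipbl* and *Wapl*. In *Rps27-FLAG* *Stag1* moved from -0.03 to 0.17 with the length trend removed, 0.18 with the block as well, and 0.015 with the block and the GC trend removed. Without 1 clone it ran from -0.075 to 0.056, and was 0.061 without replicate 2 with the block. *Nipbl* became 0.20 with the length trend removed, with and without the block. In *Rps27l-FLAG* the length trend removed gave 0.087 for *Stag1*, 0.059 for *Stag2* and 0.046 for *Nipbl*, and 0.082, 0.054 and 0.046 with the block as well. Between the lines *Stag1* ran from -0.13 to 0.0068 without 1 clone, and *Wapl* was -0.039 with the length trend removed, -0.015 with the GC trend removed and -0.023 to 0.032 without 1 clone.

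In IP against total, *Smc1a* over *Smc3* was at -0.16, the *Stag* sum over *Smc3* at 0.23 and *Smc2* over *Smc4* at -0.22. These ratios passed when the pairing was ignored (adjusted exact p 0.0125, 0.0167 and 0.0125). With the length trend removed they were at -0.16, 0.23 and -0.24, with an adjusted p of 0.0391 each by the exact sign-flip test. Their p before adjustment was 0.03125 with and without the trend, the smallest possible. The adjusted value fell because *Rad21* over *Smc3*, which turned to -0.11, reached that p as well. It therefore shows no change in the other ratios. The causes were not tested. Counts per library were the lowest of the 10 genes in *Stag1* and the highest in *Smc3*, and the part of depth was not tested.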

Other observations

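Over the 15 libraries, the profiles of normalized levels were compared as a description. *Espl1* was most like *Sipa1l2* (Pearson's r 0.981), *Nf1* (0.980) and *Ago2* (0.977). *Stag1* was most like *Prepl* (0.901), *Ogt* (0.885) and *Bad* (0.853), and *Nipbl* most like *Me2* (0.979), *4932438A13Rik* (0.966) and *Kmt2d* (0.959). Among the 10 genes, r ran from -0.41 (*Stag1* with *Stag2*) to 0.97 (*Rad21* with *Espl1*). The libraries share lines, fractions and batches, and the likeness holds their common IP and total difference.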
